A study of Neurospora crassa with 18 samples.

Results

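The histone genes of *Neurospora crassa*, a filamentous fungus, are described here across all 18 RNA-seq libraries of a study of phosphate starvation. The 7 genes were chosen by their locus tags out of the 9774 genes in the expression table. They were *hH3* (NCU01635), *hH4-1* (NCU01634), *hH4-2* (NCU00212), *hH2A* (NCU02437), *hH2B* (NCU02435), the linker histone gene *hH1* (NCU06863) and the variant gene *hH2Az* (NCU05347). All 7 had a value above 0 TPM in every library and passed the filter on low values in every comparison.

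The libraries came from mycelia that had grown for 24 h in Vogel's minimal medium and were then moved to Fries minimal medium with or without phosphate, with 3 independently inoculated cultures in each of 6 groups. In experiment 1, wild-type mat A cells (FGSC 2489) given 0 mM phosphate for 4 h were compared with the same strain given 7 mM phosphate for 4 h. In experiment 2, Δ*nuc-1* cells (FGSC 11448, with a hygromycin resistance cassette in place of *nuc-1*, mat a) were compared with wild-type mat A cells (FGSC 2489), both after 4 h at 0 mM phosphate. In experiment 3, Δ*nuc-3* cells (FGSC 11356, with the same kind of cassette, mat a) were compared with wild-type mat a cells (FGSC 4200), both after 12 h at 0 mM phosphate. Each deletion was represented by 1 strain of the Fungal Genetics Stock Center, and wild type was 1 strain within each experiment. In experiment 2 the mating type differed along with the deletion, so the deletion, the mating type and the strain cannot be told apart there. The 3 experiments had no samples in common and were sequenced on different instruments, experiment 1 at another center.

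The core histones H2A, H2B, H3 and H4 form the protein spool around which DNA is wrapped in the nucleosome, and the linker histone H1 binds the DNA between nucleosomes. In growing eukaryotic cells most core histone protein is made as DNA is replicated, while variants such as H2A.Z are made outside of S phase as well and are placed at particular nucleosomes, often near gene starts, by remodelling complexes. NUC-1 is the transcription factor that turns on the phosphate starvation genes of *N. crassa*, and NUC-3 is another transcriptional regulator of this response.

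In the NC12 assembly, *hH3* lay on chromosome II at 2874241 to 2875647 and *hH4-1* at 2877350 to 2878740, with 1702 bp and no annotated gene between them. On chromosome VII, *hH2A* lay at 2487192 to 2488439 and *hH2B* at 2490608 to 2492335, with 2168 bp and 2 annotated genes between them, the non-coding RNA gene NCU14153 and NCU02436. The second H4 gene, *hH4-2*, stood apart on chromosome III at 3024058 to 3025897, and *hH1* was on chromosome VII at 546038 to 548166. The longest locus was that of *hH2Az*, on chromosome II at 1387651 to 1392823. The spans of 5 other annotated genes overlapped those of histone genes, by 167 bp for NCU11174 at *hH4-2*, 369 bp for NCU11258 at *hH2A*, 483 bp for NCU02434 at *hH2B*, 166 bp for NCU05345 at *hH2Az* and 1956 bp for NCU05346, which lies wholly inside the *hH2Az* locus. The use of strand in the quantification was not given in the sources used here, so the values of overlapping genes are uncertain to that extent. The 2 H4 genes encode near-identical proteins in fungi, and reads shared between them would be divided by the quantification, so their separate levels are uncertain as well.

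Transcript abundance is given in TPM, a level per transcript length, so that different genes can be compared. TPM fixes the total of each library at 1000000 and keeps no read depth, so counting error is unknown here. As a check of the labels, *nuc-1* averaged 2.21 ± 0.0857 rescaled TPM in Δ*nuc-1* cells and 31.4 ± 6.58 in wild type (SD, n = 3 each). The other deleted gene, *nuc-3*, averaged 1.09 ± 0.579 rescaled TPM in Δ*nuc-3* cells and 163 ± 49.6 in wild type (SD, n = 3 each). Rescaled TPM is the TPM divided by a factor for each library, the median over genes of the ratio to the 6 libraries of the comparison. The factor was 1.13 to 1.23 in the starved and 0.849 to 0.868 in the phosphate-fed libraries of experiment 1, 0.879 to 0.979 in Δ*nuc-1* and 0.963 to 1.16 in wild type of experiment 2, and 0.944 to 1.04 in Δ*nuc-3* and 0.942 to 1.06 in wild type of experiment 3. Asexual spores were the other cell type that a mycelial culture could hold. The summed TPM of 5 conidiation markers was 5080 to 6694 in starved and 41.3 to 57.0 in phosphate-fed wild-type libraries of experiment 1. It was 14.7 to 20.6 in Δ*nuc-1* and 75.0 to 120.8 in wild type of experiment 2, and 14835 to 24126 in Δ*nuc-3* and 4408 to 7578 in wild type of experiment 3, where *con-13* was listed at 0 in all Δ*nuc-3* libraries. In starved cells of experiment 1 and in experiment 3, most of the sum was *eas*. Its mean was 5728 TPM in those starved cells, and 17637 TPM in Δ*nuc-3* and 5197 TPM in wild type of experiment 3. In the limma test described below, all 5 markers were called higher in starved cells of experiment 1, beside 34.3% of all tested genes. The log2 difference of *eas* was 7.12 (limma, adjusted p = 2.43e-07). In Δ*nuc-1* cells 3 of the 4 markers tested were called lower, beside 11.4% of all tested genes, with *eas* at -2.51 (limma, adjusted p = 0.000379). In experiment 3 *con-6* passed the same test, higher in Δ*nuc-3* (limma, adjusted p = 0.0199). There *eas*, *con-10* and *con-8* did not pass it (limma, adjusted p = 0.0545, 0.465 and 0.274), and *con-13* was not tested. The part of these differences in the histone results was not tested, and in bulk cultures fewer cells of a type and less RNA per cell cannot be told apart.

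Histone transcripts were among the most abundant in the cells. Together the 7 genes held 1.14% ± 0.0742 of the library TPM in starved and 1.16% ± 0.0192 in phosphate-fed wild type of experiment 1 (SD, n = 3 each). They held 1.17% ± 0.0353 in Δ*nuc-1* and 1.13% ± 0.0430 in wild type of experiment 2, and 1.17% ± 0.210 in Δ*nuc-3* and 0.926% ± 0.302 in wild type of experiment 3 (SD, n = 3 each). The gene of the core histone H3 ranked between 22nd and 53rd of 9774 genes by mean TPM in the 6 groups, whereas *hH2Az* ranked between 246th and 1291st. In experiments 1 and 3 all 4 groups had the same order of mean levels, with *hH3* highest, then *hH2A*, *hH2B*, *hH4-1*, *hH4-2*, *hH1* and *hH2Az*. The ranges of neighbours in this order did not overlap in either group of experiment 1. In experiment 3 all neighbours except *hH1* and *hH2Az* overlapped in wild type, and *hH3* with *hH2A*, *hH2B* with *hH4-1* and *hH4-2* with *hH1* overlapped in Δ*nuc-3*.

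Experiment 2 had another order. There *hH2A* was above *hH3* and *hH2B*, without overlap, and *hH4-2* was last in both groups. After *hH2B*, the Δ*nuc-1* libraries had *hH2Az*, *hH4-1*, *hH1* and *hH4-2*, while the wild-type libraries had *hH4-1*, *hH1*, *hH2Az* and *hH4-2*. The neighbours *hH2Az* and *hH4-1* overlapped in Δ*nuc-1*, and *hH2Az* overlapped with both *hH1* and *hH4-2* in wild type.

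**Figure D1:**
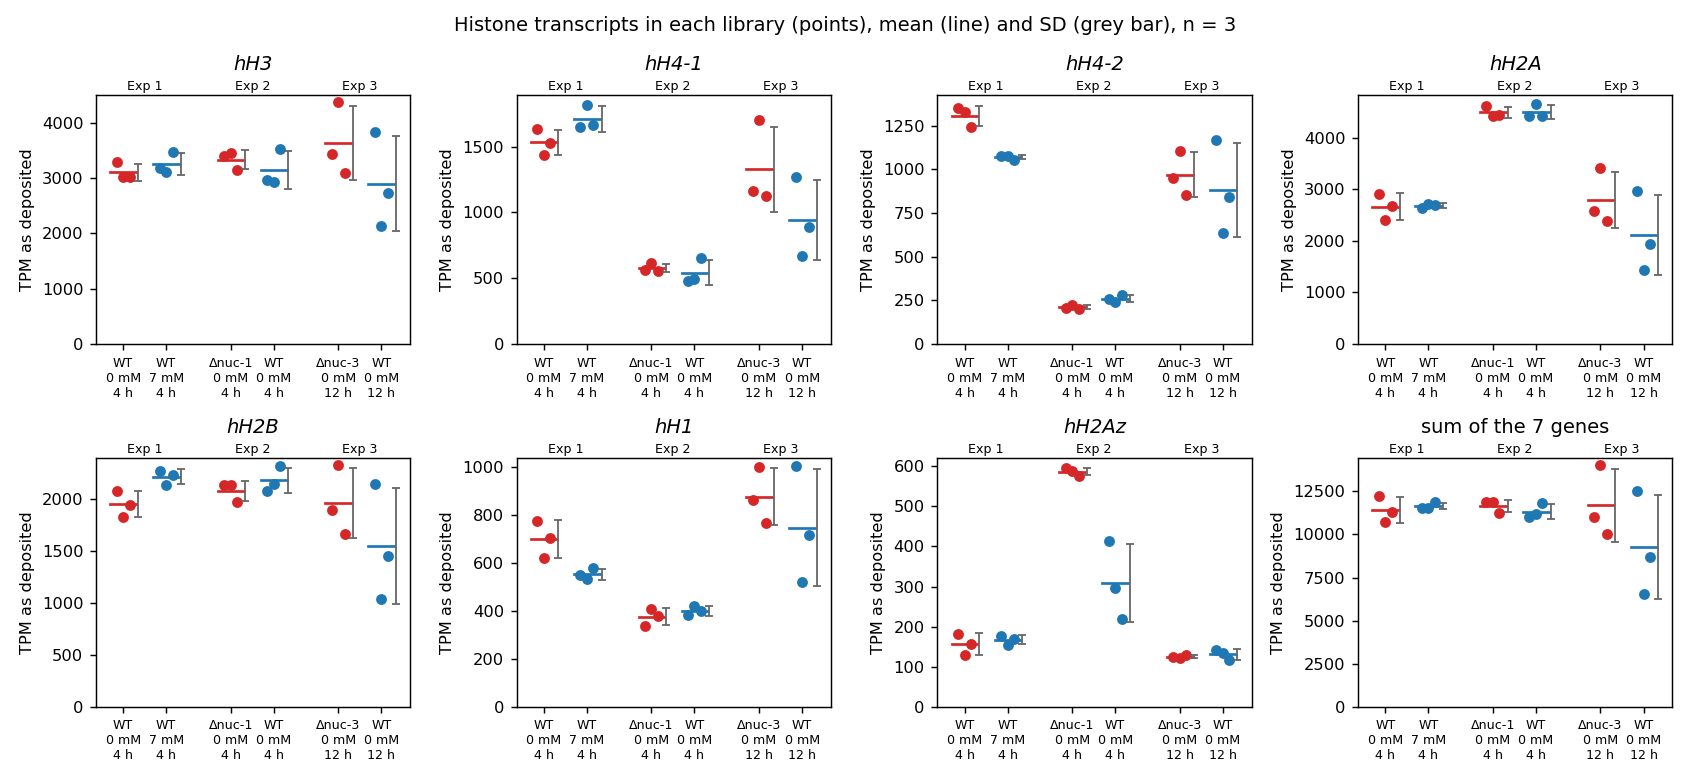
TPM as deposited of each histone gene, and of their sum, in each of the 18 libraries (points), with the group mean (line) and SD (grey bar), n = 3 cultures per group. The *hH2Az* panel shows the 3 Δ*nuc-1* libraries between 577 and 595 TPM, above the wild-type libraries at 220 to 413 TPM, and the wild-type libraries of experiment 3 are widely spread for every gene except *hH2Az*.

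The first comparison asked how histone transcripts differed between wild-type cells deprived of phosphate for 4 h and cells given 7 mM phosphate. Relative to the median gene, transcripts of *hH2B*, *hH4-1*, *hH2Az*, *hH3* and *hH2A* were 0.644 to 0.726 times as abundant in starved as in phosphate-fed cells, and 5 of the 7 genes fell in the limma test, a linear model on log2 of the rescaled TPM + 1 with a spread moderated across genes (Benjamini-Hochberg adjusted p under 0.05 over 8396 genes). The background was high, since 69.4% of all tested genes were called in this comparison, 35.1% lower and 34.3% higher. None of the 7 reached the 4-fold change that the study used as its threshold, which 7.34% of tested genes did together with an adjusted p under 0.05 and at least 10 TPM. On the TPM as deposited, where the median difference of all genes stood at 0.41 on the log2 scale, none of the 7 was called lower and 2 were called higher, beside 16.3% of all tested genes called lower and 59.8% called higher on that scale. The calls of the 5 genes are therefore relative to the median gene and do not hold for their share of the library. On the deposited values their log2 differences kept the sign but were small, at -0.185 for *hH2B* to -0.0141 for *hH2A*.

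Among the genes of the H3-H4 pair, *hH3* had 3287, 3017 and 3022 TPM in the starved cultures, against 3180, 3112 and 3477 TPM in the phosphate-fed cultures. These deposited values overlapped. After rescaling the means were 2648 ± 23.8 in starved and 3790 ± 197 in phosphate-fed cells (SD, n = 3 each), without overlap, and *hH3* fell by 0.52 ± 0.0938 on the log2 scale (limma, adjusted p = 0.00209).

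The neighbouring *hH4-1* had 1631, 1436 and 1531 TPM in the starved cultures, against 1647, 1821 and 1662 TPM in the phosphate-fed cultures. Every starved library was below every fed library, though by little. On the rescaled values *hH4-1* averaged 1305 ± 34.4 in starved and 1990 ± 110.5 in fed cells (SD, n = 3 each) and fell by 0.61 ± 0.0809 on the log2 scale (limma, adjusted p = 0.000429).

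The unlinked *hH4-2* went the other way on the deposited scale. It had 1352, 1328 and 1242 TPM in the starved cultures, against 1078, 1075 and 1056 TPM in the phosphate-fed cultures, so that every starved library was higher. On the rescaled values the means were 1115 ± 49.0 in starved and 1245 ± 26.2 in fed cells (SD, n = 3 each), a log2 difference of -0.16 ± 0.072 with a 95% interval of -0.33 to 0.01 (limma, adjusted p = 0.0835). The sign for *hH4-2* thus depended on the scaling, and its call was lost on the rescaled values, where the deposited values gave 0.29 (limma, adjusted p = 0.00889).

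Of the H2A-H2B pair, *hH2A* had 2916, 2401 and 2682 TPM in the starved cultures, against 2629, 2723 and 2701 TPM in the phosphate-fed cultures. The fed libraries lay inside the range of the starved ones. After rescaling *hH2A* averaged 2268 ± 134 in starved and 3125 ± 36.8 in fed cells (SD, n = 3 each) and fell by 0.46 ± 0.0915 on the log2 scale (limma, adjusted p = 0.00311).

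Its partner *hH2B* had 2072, 1824 and 1941 TPM in the starved cultures, against 2269, 2133 and 2229 TPM in the phosphate-fed cultures, without overlap. It fell by 0.63 ± 0.0819 on the log2 scale of the rescaled values, which averaged 1657 ± 43.3 in starved and 2573 ± 95.8 in fed cells (SD, n = 3 each; limma, adjusted p = 0.000362). This was the largest change among the 7 genes in this comparison.

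The linker gene *hH1* had 776, 620 and 705 TPM in the starved cultures, against 550, 532 and 578 TPM in the phosphate-fed cultures, with every starved library higher. After rescaling the groups overlapped, with means of 595 ± 43.7 in starved and 644 ± 23.6 in fed cells (SD, n = 3 each). The log2 difference was -0.12 ± 0.0767, with a 95% interval of -0.30 to 0.07 (limma, adjusted p = 0.216), whereas on the deposited values it was 0.33 (limma, adjusted p = 0.0143).

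The variant gene *hH2Az* had 183, 128 and 157 TPM in the starved cultures, against 177, 154 and 169 TPM in the phosphate-fed cultures, which overlapped. On the rescaled values, which averaged 132 ± 17.8 in starved and 194 ± 14.2 in fed cells (SD, n = 3 each), the groups were apart and *hH2Az* fell by 0.55 ± 0.108 on the log2 scale (limma, adjusted p = 0.00294). Its levels were the lowest of the 7 in both groups. NCU05345, which overlaps the *hH2Az* locus by 166 bp, went the other way, at 92.1 rescaled TPM in starved and 29.3 in fed cells. Its log2 difference was 1.61 (limma, adjusted p = 3.66e-06). Whether the overlap affected the value of either gene was not tested.

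Taking the 7 genes as a sum, the deposited TPM was 11417 ± 742 in starved and 11650 ± 192 in phosphate-fed cells (SD, n = 3 each), a ratio of 0.98 (exact two-sided permutation test, p = 0.7). The rescaled sum was 9720 ± 221 in starved and 13561 ± 124 in fed cells (SD, n = 3 each), a ratio of 0.717 with no overlap (exact two-sided permutation test, p = 0.1, the smallest that 3 against 3 libraries allow). Groups did not overlap for 6 of the 7 genes on the rescaled values, all lower in starved cells, where 75.0% of all tested genes did not overlap. On the deposited values 4 of the 7 did not overlap, 2 of them higher and 2 lower in starved cells, against 80.2% of all tested genes.

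**Figure D2:**
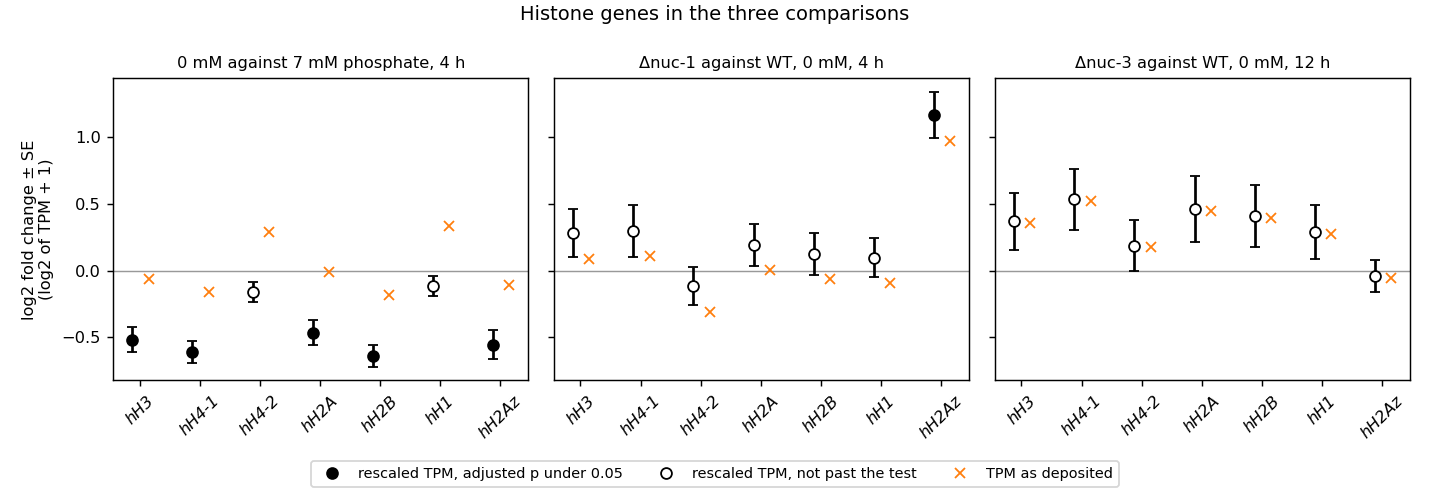
Log2 fold change (log2 of TPM + 1) of each histone gene in the 3 comparisons, as the estimate ± SE from limma on rescaled TPM (circles, filled where the adjusted p was under 0.05, n = 3 per group) and as the estimate on TPM as deposited (orange crosses). In the starvation panel 5 genes lie between -0.63 and -0.46 on the rescaled scale while the deposited values of all 7 lie between -0.18 and 0.33, and the only filled point in the Δ*nuc-1* panel is *hH2Az* at 1.16.

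Ratios between genes of the same library do not depend on how libraries are scaled. Of 6 such ratios in each of 3 comparisons, 18 in all, 8 did not overlap between the groups, 3 in the starvation comparison, 3 in the *nuc-1* comparison and 2 in the *nuc-3* comparison. Lack of overlap was common, since 75.0%, 42.2% and 29.6% of all tested genes did not overlap on rescaled values in these comparisons. No such share was worked out for ratios between other genes, and the 6 ratios have genes in common. The smallest p that the exact permutation test of 3 against 3 libraries allows is 0.1, and after Benjamini-Hochberg adjustment over the 18 ratios no p was below 0.225, so none of them passed a threshold of 0.05.

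The ratio of the 2 H4 genes, *hH4-2* to *hH4-1*, was 0.829, 0.925 and 0.812 in the starved cultures, against 0.654, 0.590 and 0.636 in the phosphate-fed cultures. Relative to its paralog, *hH4-2* was thus higher in every starved library, by 1.36 times on average and by at least 1.31 times with any 1 library left out (exact two-sided permutation test, p = 0.1, adjusted p = 0.225).

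The same ratio was lower in each deletion strain than in its wild type. In experiment 2 it was 0.367, 0.361 and 0.359 in Δ*nuc-1*, against 0.535, 0.489 and 0.429 in wild type. In experiment 3 it was 0.821, 0.651 and 0.758 in Δ*nuc-3*, against 0.920, 0.947 and 0.951 in wild type. The groups did not overlap in either experiment, and the mean was 0.748 times that of wild type in Δ*nuc-1* and 0.792 times in Δ*nuc-3* (exact two-sided permutation tests, p = 0.1 each, adjusted p = 0.225).

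The ratio of the linker gene *hH1* to the sum of the 5 core genes was 0.0689, 0.0619 and 0.0677 in the starved cultures, against 0.0509, 0.0490 and 0.0519 in the phosphate-fed cultures. It was 1.31 times as high in starved cells, again with every starved library above every fed one (exact two-sided permutation test, p = 0.1, adjusted p = 0.225). In the *nuc-1* comparison the ratio averaged 0.0351 ± 0.00366 in Δ*nuc-1* and 0.0377 ± 0.00232 in wild type (SD, n = 3 each) and the groups overlapped. In the *nuc-3* comparison it averaged 0.0825 ± 0.00445 in Δ*nuc-3* and 0.0891 ± 0.00197 in wild type (SD, n = 3 each), lower in each of the 3 deletion libraries.

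Within the pairs of partner proteins, *hH2A* to *hH2B* was 1.37 ± 0.0468 in starved and 1.22 ± 0.0590 in phosphate-fed cells (SD, n = 3 each), without overlap, and the groups overlapped in the other comparisons. The ratio of *hH3* to the summed H4 genes was 4.24 ± 0.174 in Δ*nuc-1* and 3.94 ± 0.126 in wild type (SD, n = 3 each), also without overlap, and overlapped in the other comparisons. The summed H2A and H2B genes over the summed H3 and H4 genes overlapped in all 3 comparisons.

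**Figure D3:**
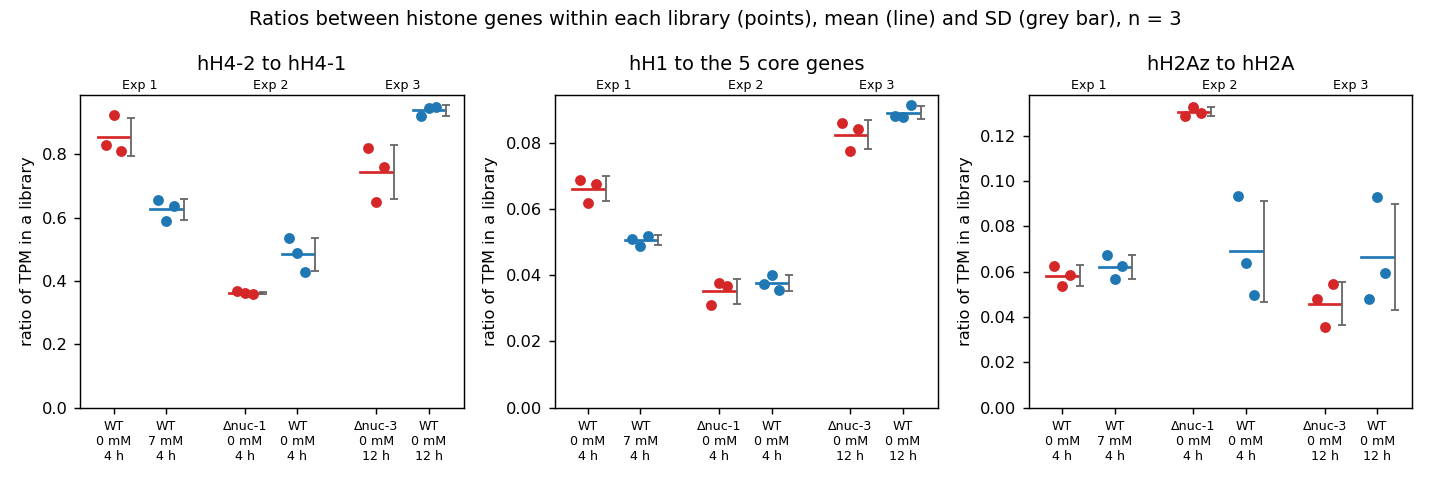
Ratio of TPM between histone genes within each library (points), with the group mean (line) and SD (grey bar), n = 3 cultures per group, for *hH4-2* to *hH4-1*, *hH1* to the 5 core genes and *hH2Az* to *hH2A*. The H4 ratio of starved wild type of experiment 1 lies at 0.812 to 0.925, above phosphate-fed cells at 0.590 to 0.654, and the ratio of *hH2Az* to *hH2A* lies at 0.129 to 0.133 in Δ*nuc-1*, above wild type at 0.0497 to 0.0934.

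The second comparison asked which histone transcripts differed between Δ*nuc-1* and wild-type cells, both starved for 4 h. Only *hH2Az* passed the test, 1 of 7 genes, while 22.8% of the 8037 tested genes passed it, 11.3% higher and 11.4% lower. Transcripts of *hH2Az*, the H2A.Z gene, were at 595, 589 and 577 TPM in the Δ*nuc-1* cultures, against 413, 296 and 220 TPM in the wild-type cultures. The lowest Δ*nuc-1* library was above the highest wild-type library, and the wild-type libraries were much more spread, by 1.56-fold after rescaling compared with 1.08-fold in Δ*nuc-1*. On the rescaled values *hH2Az* averaged 624 ± 27.8 in Δ*nuc-1* and 284 ± 65.8 in wild type (SD, n = 3 each), 2.20 times as high, and rose by 1.16 ± 0.171 on the log2 scale with a 95% interval of 0.77 to 1.55 (limma, adjusted p = 0.00336). On the deposited values the log2 difference was 0.97, and with each library left out in turn it was 1.02 to 1.33, past the test each time. The change stayed below the 4-fold threshold of the study, which 2.1% of tested genes met together with an adjusted p under 0.05 and at least 10 TPM.

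Against the main H2A gene of the same library, *hH2Az* stood at 0.129, 0.133 and 0.130 in Δ*nuc-1*, against 0.0934, 0.0637 and 0.0497 in wild type. The mean ratio was 1.89 times as high in Δ*nuc-1*, without overlap (exact two-sided permutation test, p = 0.1, adjusted p = 0.225). It overlapped between the groups of the other 2 comparisons, at 0.0582 ± 0.00460 in starved and 0.0621 ± 0.00525 in phosphate-fed cells, and at 0.0459 ± 0.00966 in Δ*nuc-3* and 0.0666 ± 0.0233 in wild type (SD, n = 3 each). The variant made up 5.04% ± 0.0829 of the summed histone TPM in Δ*nuc-1* and 2.76% ± 0.955 in wild type of experiment 2 (SD, n = 3 each), and 1.36% ± 0.153 in starved and 1.43% ± 0.0979 in phosphate-fed cells of experiment 1 (SD, n = 3 each).

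The table held 3 transcript rows for *hH2Az*, numbered here in the order of the table, which does not say how the transcripts differ. Row 2 carried 90.1%, 89.9% and 88.2% of the gene in Δ*nuc-1*, against 86.9%, 82.5% and 74.9% in wild type. On its own row 2 averaged 557 ± 18.1 rescaled TPM in Δ*nuc-1* and 233 ± 70.1 in wild type (SD, n = 3 each) and rose by 1.29 ± 0.207 on the log2 scale (limma over 8734 transcript rows, adjusted p = 0.00841). Row 1, at 63.6 ± 8.76 in Δ*nuc-1* and 47.1 ± 5.26 in wild type (SD, n = 3 each), had a log2 difference of 0.42 ± 0.145 that did not pass (limma, adjusted p = 0.0837), and row 3 averaged 2.49 in Δ*nuc-1* and 3.02 in wild type. The difference between rows 1 and 2 was not itself tested. The gene inside the *hH2Az* locus, NCU05346, was listed at 0 in all 12 libraries of experiments 1 and 2 and at 0.581 to 1.99 TPM in experiment 3. NCU05345, which overlaps the locus at its edge, averaged 60.2 rescaled TPM in Δ*nuc-1* and 90.4 in wild type. It fell by 0.57 on the log2 scale there (limma, adjusted p = 0.0156) and rose by 0.43 in Δ*nuc-3* against wild type (limma, adjusted p = 0.0462).

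**Figure D4:**
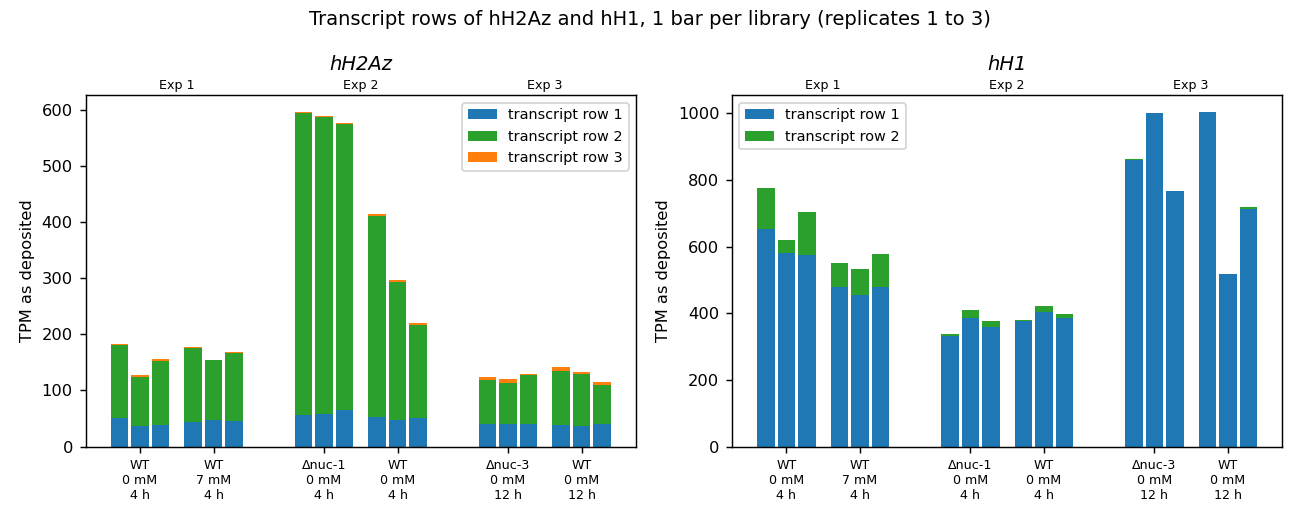
TPM as deposited of the transcript rows of *hH2Az* and *hH1*, stacked, with 1 bar for each of the 18 libraries. For *hH2Az* the second row makes up most of every bar and reaches 509 to 537 TPM in Δ*nuc-1*, above the wild-type libraries of experiment 2 at 164 to 359 TPM, and for *hH1* the second row is 6.22% to 18.4% of the gene in experiment 1 and under 1% in experiment 3.

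The other 6 histone genes did not pass the test in the *nuc-1* comparison. Their log2 differences on rescaled TPM were between -0.12 for *hH4-2* and 0.29 for *hH4-1*, with adjusted p between 0.3 and 0.688 (limma), and the signs of *hH2B* and *hH1* were negative on the deposited values. The core gene *hH2A* was at 4621, 4432 and 4438 TPM in the Δ*nuc-1* cultures, against 4424, 4655 and 4414 TPM in the wild-type cultures, a rescaled log2 difference of 0.19 with a 95% interval of -0.17 to 0.55 (limma, adjusted p = 0.423). The groups overlapped for *hH2A*, as for every gene but *hH2Az*, on rescaled values, so that 1 of 7 genes did not overlap, against 42.2% of all tested genes.

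The intervals of the other genes leave room for moderate changes. For *hH3*, at 3410, 3462 and 3141 TPM in Δ*nuc-1*, against 2965, 2935 and 3537 TPM in wild type, the 95% interval was -0.13 to 0.69 on the log2 scale. One wild-type library decided the calls of *hH3* and *hH4-1*. Without wild-type replicate 3, which had the highest rescaled level of all 5 core genes in its group, *hH3* was called higher at 0.45 (limma, adjusted p = 0.0392) and *hH4-1* at 0.52 (limma, adjusted p = 0.0286), so that 3 of the 7 genes were called, beside 9.2% of the 8035 genes tested without that library called higher and 9.0% called lower. On the deposited values *hH4-2* had 206, 222 and 199 TPM in Δ*nuc-1*, against 257, 241 and 280 TPM in wild type, lower in every deletion library but not past the test, with a log2 difference of -0.31 (limma, adjusted p = 0.0961). With *hH2Az* it made 2 of 7 genes without overlap on the deposited values, against 42.2% of all tested genes.

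The third comparison asked the same of Δ*nuc-3* and wild-type cells after 12 h without phosphate. None of the 7 genes passed the limma test, and none had an unadjusted p under 0.05, while 1.72% of the 8005 tested genes passed it, 1.41% higher and 0.312% lower, and 1736 had an unadjusted p under 0.05. The share that also met the 2-fold threshold used by the study in this comparison, with at least 10 TPM, was 0.725%. The log2 differences ran from -0.04 for *hH2Az* to 0.53 for *hH4-1*, with a median of 0.37 over the 7 genes and -0.01 over all genes tested. The groups overlapped for all 7 genes on either scale, while 29.6% of all tested genes did not overlap on the rescaled and 26.1% on the deposited values.

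For *hH4-1* the libraries had 1162, 1700 and 1123 TPM in the Δ*nuc-3* cultures, against 1273, 672 and 887 TPM in the wild-type cultures. The 95% interval of its log2 difference was -0.01 to 1.07 (limma, adjusted p = 0.238), wide enough to hold both no difference and a 2-fold one. For *hH3* the libraries had 3442, 4379 and 3092 TPM in Δ*nuc-3*, against 3833, 2131 and 2737 TPM in wild type, a log2 difference of 0.37 with a 95% interval of -0.14 to 0.87 (limma, adjusted p = 0.368). *hH2A* had 2589, 3414 and 2380 TPM in Δ*nuc-3*, against 2969, 1438 and 1946 TPM in wild type, with an interval of -0.12 to 1.04. In each of these genes wild-type replicate 1 was above 2 of the 3 Δ*nuc-3* libraries, and Δ*nuc-3* replicate 2 was above all wild-type libraries.

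The spread in experiment 3 was shared by the genes. Within wild type, replicate 1 was the highest and replicate 2 the lowest library for 6 of the 7 genes, with the highest 1.6 to 1.83 times the lowest after rescaling, and within Δ*nuc-3* replicate 2 was the highest for the same 6 genes. The exception was *hH2Az*, which had 124, 121 and 130 TPM in Δ*nuc-3*, against 142, 133 and 115 TPM in wild type. The summed rescaled TPM was 11668 ± 1584 in Δ*nuc-3* and 9095 ± 2475 in wild type (SD, n = 3 each), a ratio of 1.28 (exact two-sided permutation test, p = 0.3). Without wild-type replicate 1 the ratio of the sums was 1.51, and without wild-type replicate 2 it was 1.15.

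Over the 18 libraries, with each experiment centred on its own mean, the levels of the 5 core genes followed each other, with Pearson's r of 0.974 between *hH3* and *hH4-1*, 0.963 between *hH2A* and *hH2B*, and 0.757 at the lowest, between *hH3* and *hH4-2*. The linker gene *hH1* had r of 0.792 to 0.864 with the core genes. In contrast, *hH2Az* had r of -0.206 to 0.373 with the other 6. These values are a description over 18 libraries that share experiments, rescaling and group differences.

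By the same measure, the genes closest to the mean of the 7 histone genes, out of 6372 with a mean of at least 10 TPM, were NCU05390, NCU09871, NCU05712, NCU09478 and NCU08550, with r of 0.943, 0.941, 0.94, 0.938 and 0.927 over the 18 libraries. The most abundant of them was NCU05390, at 307 to 1517 TPM. NCU08550, at 165 to 305 TPM, and NCU05712, at 50.6 to 222 TPM, overlapped the range of *hH2Az*, which was 115 to 595 TPM over the 18 libraries.

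Wild-type cells starved for 4 h were measured in both experiment 2 and experiment 1, and their histone levels differed between the experiments by gene. *hH4-2* averaged 259 ± 19.5 TPM in experiment 2 and 1308 ± 57.8 TPM in experiment 1 (SD, n = 3 each), 5.04 times as high in experiment 1. *hH4-1* averaged 542 ± 95.8 TPM in experiment 2 and 1533 ± 97.5 TPM in experiment 1, and *hH1* 400 ± 19.9 TPM in experiment 2 and 700 ± 78.2 TPM in experiment 1 (SD, n = 3 each). *hH2Az* and *hH2A* stood the other way. *hH2Az* averaged 310 ± 97.6 TPM in experiment 2 and 156 ± 27.2 TPM in experiment 1, 1.99 times as high in experiment 2, and *hH2A* 4498 ± 136 TPM in experiment 2 and 2666 ± 258 TPM in experiment 1, 1.69 times as high (SD, n = 3 each). The means of *hH2B*, at 2173 ± 124 TPM in experiment 2 and 1946 ± 124 TPM in experiment 1, and of *hH3*, at 3146 ± 339 TPM in experiment 2 and 3109 ± 155 TPM in experiment 1, were closer (SD, n = 3 each). The summed TPM of the 5 conidiation markers also differed between these groups, at 75.0 to 120.8 in experiment 2 and 5080 to 6694 in experiment 1. The cultures, sequencing center, instrument and read length all differed between the experiments and cannot be told apart, so no test was made. Tests elsewhere compare groups of the same experiment. The gene orders, ranks and shares given above for groups of different experiments carry the same limit.

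A further 2 histone genes were found by symbol in the annotation. The centromeric H3 gene *hH3v* (NCU00145) was at 95.1 ± 13.2 TPM in starved and 72.1 ± 4.96 TPM in phosphate-fed cells (SD, n = 3 each), and *hH4v* (NCU04338) at 67.4 ± 3.61 TPM in starved and 42.1 ± 1.34 TPM in fed cells (SD, n = 3 each). On rescaled values *hH4v* rose by 0.22 ± 0.0762 in starved cells (limma, adjusted p = 0.0335). That call was mostly lost when libraries were left out in turn (limma, adjusted p between 0.00145 and 0.107, lost in 5 of 6 cases). The same call was also lost in 1 fit over all 18 libraries (limma, adjusted p = 0.0947). The difference of *hH3v* was -0.06 on the rescaled values (limma, adjusted p = 0.55) and 0.39 on the deposited values (limma, adjusted p = 0.0115), so its direction depended on the scaling. Neither passed in the other comparisons.

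The factors that load histones onto DNA, the remodelling factors that move nucleosomes, and the DNA replication machinery were counted as lists in the same fits. Their counts stand beside a background of 34.3% of all tested genes called higher and 35.1% called lower in starved cells, and 11.3% called higher and 11.4% called lower in Δ*nuc-1* cells. Of 4 chromatin assembly genes, in starved against phosphate-fed cells 1 rose and 1 fell, with *asf-1*, an H3-H4 chaperone, at 263 ± 10.3 rescaled TPM in starved and 232 ± 6.05 in fed cells and *cac-3*, a subunit of chromatin assembly factor 1, at 57.2 ± 6.41 in starved and 82.5 ± 2.68 in fed cells (SD, n = 3 each). The log2 differences were 0.18 for *asf-1* and -0.53 for *cac-3* (limma, adjusted p = 0.0236 and 0.00109). The call of *asf-1* was lost when starved replicate 3 or any 1 of the 3 phosphate-fed replicates was left out (limma, adjusted p between 0.0167 and 0.0914 with each library left out), with the replicate block (adjusted p = 0.0502) and in 1 fit over all 18 libraries (adjusted p = 0.261), whereas that of *cac-3* held with each library left out. Without starved replicate 1, 2 of the 4 were called lower. On the deposited values 2 of the 4 were higher in starved cells and none was lower, beside 59.8% and 16.3% of all tested genes. None of the 4 passed on rescaled values in the other comparisons.

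Of 12 remodelling factor genes, 2 rose and 8 fell in starved cells, beside 34.3% of all tested genes called higher and 35.1% called lower, with a median log2 difference of -0.33 over the list and 0.002 over all genes tested. The number lower was 8 with each library left out, and the number higher was 1 without phosphate-fed replicate 1 or 3 and in 1 fit over all 18 libraries. On the deposited values 5 were higher and 3 lower. The largest changes were the falls of *crf1-1*, by 0.78, and *crf4-2*, by 0.76 (limma, adjusted p = 5.29e-05 and 2.83e-05). In Δ*nuc-1* cells 2 of the 12 rose and none fell, beside 11.3% of all tested genes called higher, and the 2 were *crf10-1*, by 0.98, and *crf1-1*, by 0.61 (limma, adjusted p = 0.0174 and 0.0411). Neither was called without wild-type replicate 1 or without wild-type replicate 3. *crf1-1* was also not called when any 1 of the 3 Δ*nuc-1* replicates was left out, on the deposited values, without the filter on low values or with the replicate block (limma, adjusted p between 0.0258 and 0.114 with each library left out), which left 1 gene called, and 1 fit over all 18 libraries called 5 of the 12. None of the 12 passed in the *nuc-3* comparison.

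Of 23 DNA replication genes, 3 rose and 10 fell in starved cells, beside 34.3% of all tested genes called higher and 35.1% called lower, with a median log2 difference of -0.18 over the list. The number lower was 6 to 13 with each library left out, with 6 without phosphate-fed replicate 2, starved replicate 2 or starved replicate 3, and 6 in 1 fit over all 18 libraries. On the deposited values 9 were higher and 1 was lower. The 2 with the largest change both rose, NCU03528 by 1.19 and the DNA ligase gene NCU09706 by 0.81 (limma, adjusted p = 3.18e-06 and 0.000122). In Δ*nuc-1* cells 1 of the 23 rose, beside 11.3% of all tested genes called higher. It was NCU09261, which encodes a subunit of the GINS replication complex, higher by 0.85 (limma, adjusted p = 0.049). No gene of the list was called when wild-type replicate 1 or 3 or Δ*nuc-1* replicate 2 or 3 was left out, on the deposited values, without the filter, with the replicate block or with a robust spread. Without Δ*nuc-1* replicate 1 the 2 genes called did not include NCU09261 (limma, adjusted p = 0.052), and 1 fit over all 18 libraries called 4 higher and 2 lower. None of the list passed in the *nuc-3* comparison.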

How the data were processed

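RNA-seq libraries of *N. crassa* mycelia were made from poly(A)-enriched RNA. The authors deposited 1 table of TPM (transcripts per 1000000), quantified with Salmon 1.4.0 on the OR74A genome (version 12 of its annotation) with no further scaling stated, for 10697 transcripts in 18 libraries. TPM keep no counts, so depth is unknown and no count model was used. Transcript rows were summed to 9774 genes, of which 9773 matched the NC12 RefSeq table used for positions and symbols.

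Within each experiment, libraries were rescaled by the median of ratios. Genes averaging 1 TPM or more in at least 1 of both groups were fitted on log2(rescaled TPM + 1) with limma 3.58.1 in R 4.3.3 (eBayes with a trend), and p-values were adjusted over all genes tested. Fold changes of low genes are understated on this scale. The script was tested on simulated data. Sums and ratios, 1 value per library, were compared by exact permutation (SciPy 1.17.1). Replicate numbers did not pair the libraries, since same-numbered libraries did not deviate together.

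The members and the gene lists were chosen with earlier results of these data known. The list of other histone genes was matched by symbol, because the RefSeq table gives no products. Genes named outside the 7 were those deleted, the other histone genes, the genes overlapping a histone locus and those between *hH2A* and *hH2B*. Also named were the conidiation markers and the 5 genes closest to the histone mean. From the assembly, remodelling and replication lists, at most the 2 members with the largest change among those past the test were named. The overlapping genes were added after the data had been seen. Alternatives were the TPM as deposited, upper-quartile rescaling, a pseudocount of 0.1, no filter, a single model of the 18 libraries, a block for the replicate number, a robust spread, and each library left out in turn. Transcript rows fitted on their own, and upper-quartile rescaling of the sums, were added after the data had been seen.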

Additional observations from a re-analysis of the deposited data

How the results depend on the processing

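The scaling of the libraries decided which histone genes were called in starved cells, and the direction for *hH4-2*, *hH1* and *hH3v*. The 5 histone genes called lower on rescaled values were also lower on TPM as deposited, but none passed the test there. On TPM as deposited, 5022 genes were higher and 1367 lower in starved cells, 2 histone genes were higher and 0 lower, the log2 differences of *hH4-2*, *hH1* and *hH3v* were 0.289, 0.334 and 0.387, and the summed histone ratio was 0.98 (0.744 with upper-quartile rescaling, chosen after seeing the data). In Δ*nuc-1* against wild type the deposited values gave 601 genes higher, a summed ratio of 1.03, and -0.0667, -0.0956 and -0.0322 for *hH2B*, *hH1* and *hH3v*, and in Δ*nuc-3* against wild type 65 higher and 9 lower. One fit over all 18 libraries called 1422 genes higher and 1687 lower in Δ*nuc-1* and 343 higher and 152 lower in Δ*nuc-3*. The causes were not tested. The single fit both pools the spread over more libraries and rescales all 18 together.

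Same-numbered libraries correlated at -0.0463 to 0.0469, -0.069 to -0.00748 and -0.561 to -0.0703 in the 3 comparisons, so the numbers do not pair them. Differently numbered libraries of the *nuc-3* comparison correlated at -0.455 to 0.552, highest between Δ*nuc-3* replicate 2 and wild-type replicate 1. Whether libraries were matched across numbers was not tested. With the replicate block 2 genes were higher and 1 lower in Δ*nuc-3*, and the calls of the 7 histone genes did not change in any comparison.

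With each library left out in turn, 524 to 874 genes were higher and 526 to 875 lower in Δ*nuc-1*, with 1 to 3 histone genes higher, and 4 to 79 higher and 1 to 17 lower in Δ*nuc-3*. The log2 difference of *hH4-2* in Δ*nuc-1* was -0.19 to 0.0234 (positive without wild-type replicate 3). In Δ*nuc-3* those of *hH3v*, *hH4v* and *hH2Az* also changed sign, at -0.2 to 0.0596, -0.0258 to 0.126 and -0.137 to 0.0256 (0.0127 without Δ*nuc-3* replicate 2). Transcript rows fitted on their own turned the sign for *hH2Az* row 3 in starved (0.664) and Δ*nuc-1* cells (-0.196), and for *hH2Az* row 1 (0.0607) and *hH1* row 2 (-0.718) in Δ*nuc-3*, none of them past the test (limma, adjusted p between 0.158 and 0.712). The 5 histone calls in starved cells and the *hH2Az* call in Δ*nuc-1* held under every alternative tried, except that the starvation calls were lost on TPM as deposited and that *hH2Az* was not called in its row 3 alone in either comparison or in its row 1 alone in Δ*nuc-1*.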
